A study of Homo sapiens with 10 samples.

Results

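The genes described here handle peroxides, thiols and glutathione or answer to the transcription factor NRF2, and they were followed in SH-SY5Y cells, a line from a human neuroblastoma that makes noradrenergic gene products. They were chosen by name, with earlier results of these data known, and the list held 54 genes. A gene counted as measured when the array had a probe set annotated with that gene alone, which left 46 of the 54, out of 14232 named genes on the array. The study compared cells stably transfected with SOD1(G93A), a mutant of copper-zinc superoxide dismutase found in familial amyotrophic lateral sclerosis (ALS), with cells stably transfected with wild-type SOD1. Both kinds of cells carried a transfected SOD1 on top of the endogenous gene and were kept under Geneticin (G418), and no untransfected cells were analysed here. There were 5 SOD1(G93A) arrays (samples 3, 9, 12, 15 and 18) and 5 wild-type SOD1 arrays (samples 2, 8, 11, 14 and 17). The sources used here do not say whether a transfected line was 1 clone or a pool of clones, nor if its 5 samples were grown as separate cultures. The p-values therefore measure the spread between these samples only, which may be technical.

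Superoxide dismutases turn superoxide into hydrogen peroxide, and the genes below act on what follows. Catalase, the glutathione peroxidases (GPX) and the peroxiredoxins (PRDX) reduce peroxides. For the peroxidases and peroxiredoxins, thioredoxin and glutathione supply the electrons. Both are kept reduced by NADPH from the pentose phosphate pathway and malic enzyme. NRF2, encoded by NFE2L2, is held and marked for degradation by KEAP1. When oxidants or electrophiles modify KEAP1, NRF2 accumulates and binds antioxidant response elements near many of these genes together with a small MAF protein.

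The core letters of the antioxidant response element, TGACNNNGC, read GCNNNGTCA on the other strand. They were searched on both strands in the 250 bases before the annotated starts of the members, with sequences from RefSeq (GRCh38.p14). The stretches of 5 of the 9 members that hold the letters upstream are shown. KEAP1 was taken because it rose, and GCLM, GSTP1, ME1 and TXNRD1 as known NRF2 targets. PGD, GSTA4, GSTO1 and CBR1 also hold the letters and are not shown. GPX8 is shown because it had the largest fold change. Each stretch shown runs 5′ to 3′ on the strand of its gene, and capitals mark the match.
KEAP1: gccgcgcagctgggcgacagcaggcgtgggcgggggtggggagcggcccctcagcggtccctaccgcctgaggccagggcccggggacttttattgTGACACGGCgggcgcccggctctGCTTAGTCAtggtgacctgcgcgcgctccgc
GCLM: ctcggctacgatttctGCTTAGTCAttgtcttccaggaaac
GSTP1: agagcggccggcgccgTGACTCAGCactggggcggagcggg
ME1: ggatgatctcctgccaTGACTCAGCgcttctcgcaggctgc
TXNRD1: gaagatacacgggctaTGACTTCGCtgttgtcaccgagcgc
GPX8: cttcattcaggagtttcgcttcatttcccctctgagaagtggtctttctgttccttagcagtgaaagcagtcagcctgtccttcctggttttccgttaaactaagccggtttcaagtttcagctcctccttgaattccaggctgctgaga
The stretches are chr19:10502772-10502921 (minus strand) for KEAP1, chr1:93909440-93909480 (minus) for GCLM, chr11:67583730-67583770 (plus) for GSTP1, chr6:83431164-83431204 (minus) for ME1, chr12:104215664-104215704 (plus) for TXNRD1 and chr5:55160021-55160170 (plus) for GPX8. In KEAP1 the matches began 54 and 31 bases before the start, and in GCLM the match began 34 bases before it. The matches in GSTP1 and ME1 began 66 and 137 bases before the start and also hold TGACTCA, the letters of the AP-1 site. No match was found in the 250 bases of GPX8. Of 42 members with a window in the table, 9 held the letters upstream (21.4%), against 13.2% of 27305 genes. Counted by window, since some genes have several, 10 of 57 member windows (17.5%) and 10.9% of all 35116 windows held them. A match is a stretch of letters only, and binding there was not measured.

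The arrays of the study were alike. Their median log2 intensities ran from 6.26 to 6.34. Over all probe sets, arrays of 1 group correlated at 0.990 to 0.994, and arrays of different groups at 0.986 to 0.990. The noradrenergic neuroblastoma markers (7 of 10 measured) had a list mean of 9.36 to 9.55 over the SOD1(G93A) arrays and 9.24 to 9.41 over the wild-type SOD1 arrays, and in that list CHGA rose by 1.06 and GATA3 fell by 0.38 on the log2 scale. Tyrosine hydroxylase (TH) averaged 5.67 in SOD1(G93A) arrays and 5.59 in wild-type SOD1 arrays. The immune markers PTPRC, CD3E and CSF1R averaged 2.13, 2.76 and 3.71 in SOD1(G93A) arrays and 2.18, 2.90 and 3.68 in wild-type SOD1 arrays, all under each array's lower quartile, which was 3.84 to 3.89. The other measured immune marker, CD14, lay above it and averaged 4.64 in both groups. Over all 22011 probe sets, 1643 (7.46%) passed an adjusted p of 0.05 by limma. SOD1 itself was at 9.64, 9.59, 9.42, 9.60 and 9.51 in SOD1(G93A) arrays, against 9.88, 9.81, 9.66, 9.62 and 9.92 in wild-type SOD1 arrays. Its log2 fold change was −0.23 (95% interval −0.39 to −0.06, adjusted p = 0.107 by limma), and the exact permutation test of the 10 values gave p = 0.0159 (2-sided). The probe set may read the endogenous and the transfected gene together, so it does not check the labels.

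Across the 46 measured members, 3 rose and 6 fell in the SOD1(G93A) arrays, by limma with adjustment over all probe sets. GPX8 rose 5.04-fold, and KEAP1 and the ferritin light chain gene FTL rose by less than the 2-fold that the labels ask for. MGST1 fell to 39.6% of the wild-type SOD1 level, AKR1C3 to 51.8%, MSRB2 to 56.2%, GLRX to 57.5%, MSRA to 79.6% and ABCC1 to 80.8%. The 9 called members are 19.6% of those measured, beside 9.6% of all named genes (4.03% higher and 5.57% lower). The list was made with earlier results of these data known, so these shares are no test of an excess. Among named genes above the lower quartile of mean level, 11.5% were called (4.79% higher and 6.73% lower). Of the 46 members 44 lay there, and the called GPX8 and MGST1 did not, so 19.6% is of a wider set. GPX8 and MGST1 were also the only members past the 2-fold threshold, as were 1.18% of named genes. None of the 44 passed it, against 1.42% of named genes above the lower quartile. The median log2 fold change of the members was −0.043, against −0.004 over all named genes, and 63% of the members had a negative value, against 51.3%. Without samples 17 and 18 together, or without any 1 of samples 3, 9, 14, 17 and 18, only GPX8 among the members was called higher.

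**Figure D1:**
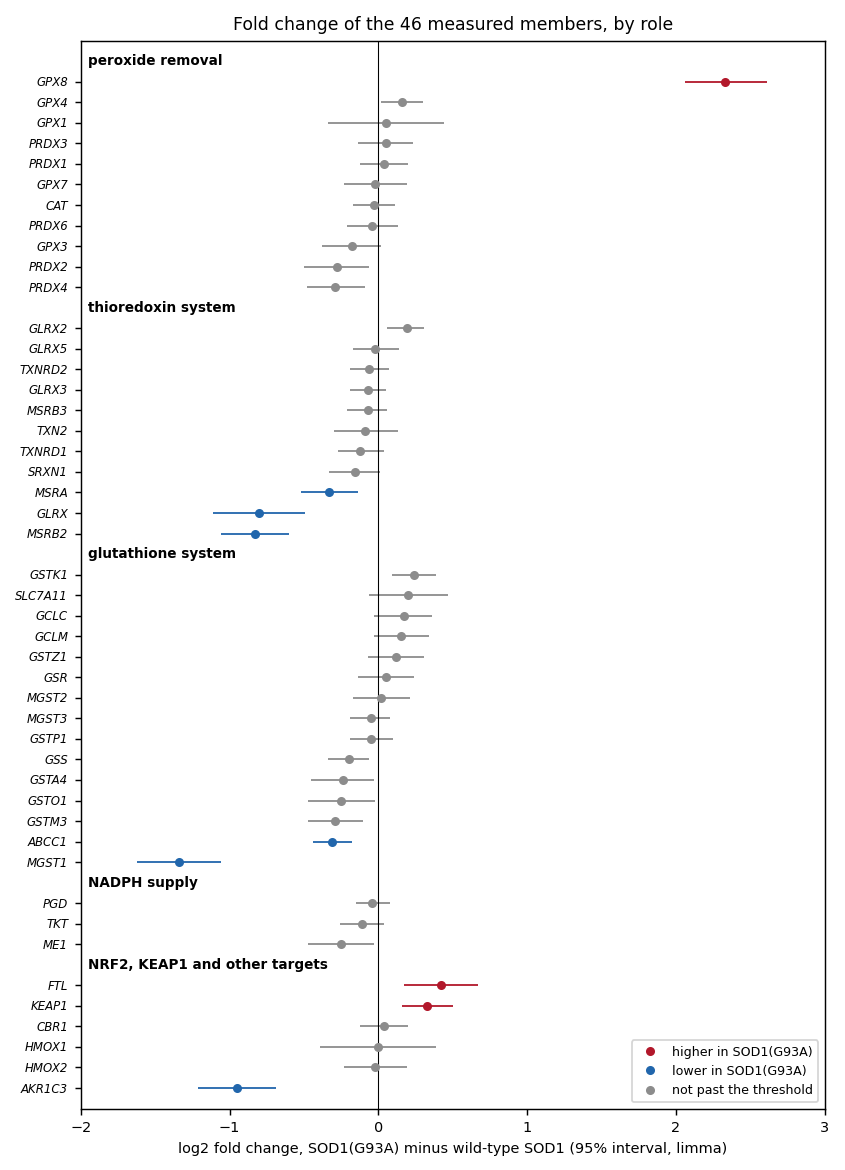
Log2 fold change of each measured member, SOD1(G93A) minus wild-type SOD1, with its 95% interval from limma (n = 5 arrays per group), ordered within roles. GPX8 stands at 2.33 and MGST1 at −1.34, while the 37 grey members lie between −0.29 and 0.24.

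Among the enzymes that remove peroxides, 1 of 11 measured rose, 0 fell and 10 did not pass the test by limma. The share called was 9.09%, against 9.6% of named genes. At an unadjusted p under 0.05 there were 2 higher and 2 lower, and of all 14232 named genes 1437 were higher and 1650 lower. GPX8 encodes a glutathione peroxidase relative anchored in the membrane of the endoplasmic reticulum. Its log2 level was 5.31, 4.85, 4.60, 5.25 and 5.06 in SOD1(G93A) arrays, against 2.76, 2.68, 2.75, 2.57 and 2.64 in wild-type SOD1 arrays. Every SOD1(G93A) array lay above every wild-type SOD1 array by more than the spread within either group. The log2 fold change was 2.33 (SE 0.13, adjusted p = 8.86e-07). The wild-type SOD1 level lies under that lower quartile, where array differences are compressed, so the size of the fold is uncertain.

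GPX8 rose together with some mesenchymal markers and not with others. Of 10 such markers, VIM, FN1 and CD44 rose by 0.37, 0.46 and 0.47 on the log2 scale, and SNAI2 fell by 1.03. FN1 was read from the brighter of its 2 probe sets, and the value of the other is not given here. The mean of the 10 was 7.25 to 7.38 over the SOD1(G93A) arrays and 7.25 to 7.45 over the wild-type SOD1 arrays. Of 3 measured Schwann and glial markers, S100B rose by 0.73, and it averaged 3.69 in wild-type SOD1 arrays, under the lower quartile. The others, SOX10 and GFAP, had log2 fold changes of −0.04 and −0.03, neither past the threshold. The mean of the 3 was 4.72 to 4.88 in SOD1(G93A) arrays and 4.53 to 4.64 in wild-type SOD1 arrays. The part of these genes in the GPX8 difference was not tested.

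The closest relative of GPX8 in place and kind, GPX7, an enzyme of the endoplasmic reticulum too, had a log2 fold change of −0.02 (95% interval −0.23 to 0.19, adjusted p = 0.965). GPX4, which reduces lipid hydroperoxides in membranes and guards against ferroptosis, was at 11.27, 11.12, 11.08, 11.25 and 11.11 in SOD1(G93A) arrays, against 10.97, 11.00, 11.04, 10.87 and 11.13 in wild-type SOD1 arrays. These groups overlapped, and the fold change of 0.16 (95% interval 0.02 to 0.30) was not past the threshold (adjusted p = 0.194). GPX3, the secreted form, had a fold change of −0.18 (95% interval −0.38 to 0.02, adjusted p = 0.344), and −0.11 without SOD1(G93A) sample 12. Catalase (CAT), the peroxisomal enzyme that splits hydrogen peroxide, had a fold change of −0.03 (95% interval −0.17 to 0.11). GPX1, the main cytosolic glutathione peroxidase, was the least steady member, at 6.53, 5.62, 5.96, 5.75 and 5.67 in SOD1(G93A) arrays, against 6.16, 5.96, 5.85, 5.81 and 5.50 in wild-type SOD1 arrays. Its 95% interval of −0.34 to 0.44 is therefore wider than that of any other peroxide enzyme.

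The peroxiredoxins differed little between the lines. PRDX1, an abundant cytosolic member and an NRF2 target, had a log2 fold change of 0.04 (95% interval −0.12 to 0.20), the mitochondrial PRDX3 of 0.05 (−0.14 to 0.23) and PRDX6, the 1-cysteine form, of −0.04 (−0.21 to 0.13). PRDX4, the form of the endoplasmic reticulum, was at 8.80, 8.69, 8.40, 8.77 and 8.65 in SOD1(G93A) arrays, against 8.95, 9.03, 8.94, 8.76 and 9.07 in wild-type SOD1 arrays. Wild-type SOD1 sample 14 lay inside the SOD1(G93A) range, and the fold change of −0.29 (95% interval −0.48 to −0.09) was just outside the threshold (adjusted p = 0.0846). The brighter of the probe sets for PRDX2, a cytosolic form, gave −0.28 (SE 0.10, adjusted p = 0.136) and the other gave 0.14 (SE 0.13, adjusted p = 0.658), so they disagree in sign and neither was past the threshold. PRDX5 had no probe set of that name.

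Thioredoxins, glutaredoxins and the methionine sulfoxide reductases they serve held 3 falls and no rise among 11 measured genes by limma. The share called was 27.3%, against 9.6% of named genes. At an unadjusted p under 0.05, 1 was higher and 3 were lower, beside 1437 higher and 1650 lower of all 14232 named genes. Of the 11, 10 had a negative fold change (90.9%, against 51.3% of named genes), with a median of −0.088. MSRB2 reduces the R form of oxidized methionine in mitochondria. Its level was 9.90, 9.67, 9.48, 10.03 and 9.58 in SOD1(G93A) arrays, against 10.57, 10.59, 10.57, 10.41 and 10.67 in wild-type SOD1 arrays. The groups were apart, and it fell by 0.83 on the log2 scale (SE 0.10, adjusted p = 0.000494). MSRA, which reduces the S form, was at 6.39, 6.12, 6.16, 6.16 and 6.24 in SOD1(G93A) arrays and at 6.64, 6.49, 6.41, 6.39 and 6.78 in wild-type SOD1 arrays. These groups met at 6.39, and MSRA fell by 0.33 (SE 0.09, adjusted p = 0.0464). That call survived the omission of SOD1(G93A) sample 3 or wild-type SOD1 sample 14, and omitting any of the other 8 arrays ended it (adjusted p up to 0.110). The relative MSRB3 had a fold change of −0.07 (95% interval −0.21 to 0.06).

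GLRX, the cytosolic glutaredoxin that removes glutathione from proteins, was at 3.91, 4.15, 4.10, 4.0 and 4.18 in SOD1(G93A) arrays, against 5.44, 4.66, 4.84, 4.74 and 4.66 in wild-type SOD1 arrays. The groups did not overlap, and GLRX fell by 0.80 (SE 0.14, adjusted p = 0.00488). Wild-type SOD1 sample 2 stood above the other 4 of its group, and without it GLRX fell by 0.66 (adjusted p = 0.000533). The other glutaredoxins did not share this fall. GLRX2, a mitochondrial and nuclear form, had a positive fold change of 0.19 just outside the threshold (95% interval 0.06 to 0.31, adjusted p = 0.0916). GLRX3 and GLRX5, which act in iron-sulfur cluster handling, had fold changes of −0.07 (−0.19 to 0.05) and −0.02 (−0.17 to 0.14).

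The reductases that keep thioredoxin active did not pass the test. TXNRD1, the cytosolic selenoenzyme and a classic NRF2 target, was at 8.71, 8.58, 8.61, 8.87 and 8.83 in SOD1(G93A) arrays, against 8.91, 8.72, 8.84, 8.84 and 8.87 in wild-type SOD1 arrays. Its fold change was −0.12 (95% interval −0.27 to 0.04, adjusted p = 0.434). The mitochondrial pair TXN2 and TXNRD2 had fold changes of −0.09 (−0.30 to 0.13) and −0.06 (−0.19 to 0.07). SRXN1, sulfiredoxin, which repairs over-oxidized peroxiredoxins and is also driven by NRF2, had a fold change of −0.16 (−0.33 to 0.01, adjusted p = 0.313). TXN itself had no probe set of that name.

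**Figure D2:**
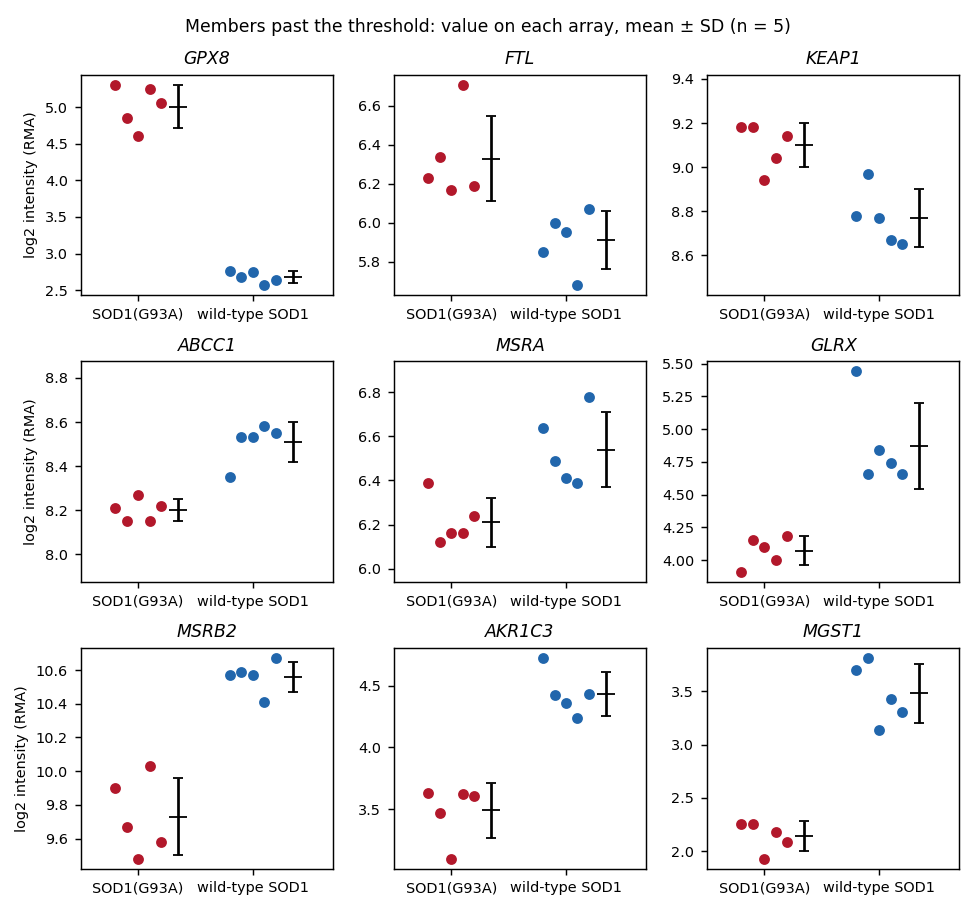
Log2 intensity of the 9 members past the threshold on each array, SOD1(G93A) left and wild-type SOD1 right, with mean ± SD (n = 5) beside the points and a separate axis for each gene. KEAP1 and MSRA are the genes whose groups meet or overlap, and GLRX shows wild-type SOD1 sample 2 alone at 5.44.

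In the glutathione system, 2 of 15 measured genes fell, 0 rose and 13 did not pass the test by limma. The share called was 13.3%, against 9.6% of named genes. At an unadjusted p under 0.05, 1 was higher and 6 were lower, beside 1437 higher and 1650 lower of all 14232 named genes. MGST1 encodes a membrane-bound glutathione transferase with peroxidase activity, found in the endoplasmic reticulum and the outer mitochondrial membrane. It was at 2.26, 2.26, 1.93, 2.18 and 2.09 in SOD1(G93A) arrays, against 3.70, 3.81, 3.14, 3.43 and 3.31 in wild-type SOD1 arrays. The groups were well apart, and MGST1 fell by 1.34 (SE 0.13, adjusted p = 6.77e-05). Both levels lie under the lower quartile, so the size of the fold is uncertain. Its relatives MGST2 and MGST3 had fold changes of 0.02 (95% interval −0.17 to 0.21) and −0.05 (−0.19 to 0.08).

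ABCC1, the multidrug resistance transporter that exports glutathione conjugates, showed a small and tight difference. It was at 8.21, 8.15, 8.27, 8.15 and 8.22 in SOD1(G93A) arrays, against 8.35, 8.53, 8.53, 8.58 and 8.55 in wild-type SOD1 arrays. The ranges did not meet, and ABCC1 fell by 0.31 (SE 0.06, adjusted p = 0.00691).

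Glutathione synthesis did not pass the test at any step. GCLC, the catalytic subunit of the rate-limiting ligase, was at 7.27, 7.22, 7.17, 7.23 and 7.64 in SOD1(G93A) arrays, against 7.11, 7.10, 7.25, 7.09 and 7.14 in wild-type SOD1 arrays. Its fold change of 0.17 (95% interval −0.03 to 0.36, adjusted p = 0.356) was 0.08 without SOD1(G93A) sample 18. The modifier subunit GCLM had 0.15 (95% interval −0.03 to 0.34, adjusted p = 0.375). GSS, glutathione synthetase, was at 8.73, 8.50, 8.60, 8.74 and 8.69 in SOD1(G93A) arrays, against 8.86, 8.84, 8.96, 8.76 and 8.85 in wild-type SOD1 arrays. The groups did not overlap, yet the fold change of −0.20 (95% interval −0.34 to −0.06) was just outside the threshold (adjusted p = 0.0903).

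SLC7A11, the cystine importer, had a fold change of 0.20 (95% interval −0.06 to 0.47, adjusted p = 0.417), and SOD1(G93A) sample 18 was again the highest array, at 5.08 against 4.45 to 4.76 in the other SOD1(G93A) arrays and 4.29 to 4.68 in wild-type SOD1 arrays. Without that sample the fold change was 0.11. GSR, which regenerates reduced glutathione, had 0.05 (95% interval −0.14 to 0.24).

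None of the soluble glutathione transferases, which attach glutathione to electrophiles, passed the test by limma. GSTK1, a mitochondrial and peroxisomal form, was at 9.68, 9.55, 9.53, 9.62 and 9.52 in SOD1(G93A) arrays, against 9.40, 9.33, 9.45, 9.15 and 9.37 in wild-type SOD1 arrays. The groups did not overlap, and the fold change of 0.24 (95% interval 0.09 to 0.39) lay just outside the threshold (adjusted p = 0.0557). It was past the threshold under 6 of 9 other settings (adjusted p from 0.0329) and in 0 of 10 omissions of a single array (0.0511 to 0.124). GSTM3, a class mu form, had −0.29 (95% interval −0.47 to −0.10, adjusted p = 0.0755) and was past the threshold under 4 of 9 other settings (adjusted p from 0.0282) and in 0 of 10 omissions of a single array (0.0579 to 0.164). Class mu genes are near copies of each other, and a probe may read more than 1 of them. GSTO1 and GSTA4 had −0.25 (−0.47 to −0.02) and −0.24 (−0.45 to −0.03), with adjusted p of 0.217 and 0.204. GSTP1, the pi form that is abundant in many tumours, had −0.05 (−0.19 to 0.10), and GSTZ1 had 0.12 (−0.07 to 0.31).

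NADPH supply held no call by limma among 3 measured genes, all with negative values, and at an unadjusted p under 0.05 only ME1 passed. PGD, the second dehydrogenase of the pentose phosphate pathway, was at 11.25, 11.19, 11.23, 11.25 and 11.34 in SOD1(G93A) arrays and at 11.23, 11.22, 11.38, 11.30 and 11.30 in wild-type SOD1 arrays, with a fold change of −0.04 (95% interval −0.15 to 0.08). TKT, transketolase, had −0.11 (−0.26 to 0.04). ME1, cytosolic malic enzyme, had −0.25 (−0.47 to −0.03, adjusted p = 0.197).

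KEAP1, the repressor of NRF2, rose slightly. It was at 9.18, 9.18, 8.94, 9.04 and 9.14 in SOD1(G93A) arrays, against 8.78, 8.97, 8.77, 8.67 and 8.65 in wild-type SOD1 arrays. SOD1(G93A) sample 12 lay just below wild-type SOD1 sample 8, and the other arrays were apart. The log2 fold change was 0.33 (SE 0.08, adjusted p = 0.0222), or 126% of the wild-type SOD1 level. The call was lost without any 1 of samples 3, 9, 14, 17 and 18 (adjusted p up to 0.0590) and without samples 17 and 18 together (adjusted p = 0.109). NFE2L2 has no value here because it appears only in a probe set annotated with several genes, and the same holds for the quinone reductases NQO1 and NQO2, the glutathione transferase GSTM4 and the pentose phosphate enzyme TALDO1. No probe set carried the symbol of FTH1, the ferritin heavy chain.

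Of the other genes of the NRF2 group, AKR1C3 fell, FTL rose, and CBR1, HMOX1 and HMOX2 did not pass the test. AKR1C3, an aldo-keto reductase that reduces steroids, prostaglandins and reactive carbonyls, was at 3.63, 3.47, 3.10, 3.62 and 3.61 in SOD1(G93A) arrays, against 4.72, 4.42, 4.36, 4.24 and 4.43 in wild-type SOD1 arrays. It fell by 0.95 (SE 0.12, adjusted p = 0.000494), with no overlap. The SOD1(G93A) level lies under the lower quartile, and AKR1C3 has near-identical relatives that probes may read too.

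FTL, the light chain of the iron store ferritin, was at 6.23, 6.34, 6.17, 6.71 and 6.19 in SOD1(G93A) arrays, against 5.85, 6.0, 5.95, 5.68 and 6.07 in wild-type SOD1 arrays. The groups did not overlap, and FTL rose by 0.42 (SE 0.11, adjusted p = 0.0472). Of the 10 arrays, SOD1(G93A) sample 12 was the only one whose omission kept the call, and the highest adjusted p without 1 array was 0.105. FTL has many processed pseudogenes, which its probes may also read.

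HMOX1, the inducible heme oxygenase and among the most responsive NRF2 targets, was at 5.94, 5.75, 5.78, 5.93 and 6.03 in SOD1(G93A) arrays, against 5.61, 5.69, 5.77, 5.72 and 6.64 in wild-type SOD1 arrays. Wild-type SOD1 sample 17 stood alone. The fold change was 0.00 (95% interval −0.39 to 0.39, adjusted p = 0.999), and without that sample it was 0.19 (adjusted p = 0.197). The constitutive HMOX2 had −0.02 (−0.23 to 0.19), and CBR1, a carbonyl reductase, 0.04 (−0.12 to 0.20).

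The promoter letters shown above occurred in called and in uncalled members, and whether they go with the calls was not tested. Of 7 called members with a window, only KEAP1 held them upstream, and of 28 members not called, 8 did. MGST1 held a match 30 bases after 1 of its annotated starts. GCLM, GSTP1, ME1 and TXNRD1, all with the letters, had fold changes of 0.15, −0.05, −0.25 and −0.12, none past the threshold. PGD, GSTA4, GSTO1 and CBR1, with letters that are not shown, had −0.04, −0.24, −0.25 and 0.04, none past it either.

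Of the 46 measured members, 10 had no overlap between the groups (21.7%), against 11.4% of named genes and 13.6% of those above the lower quartile. They were GPX8, GLRX, MSRB2, MGST1, ABCC1, AKR1C3 and FTL among the called ones and GSS, GSTA4 and GSTK1 among the others. GPX8 and MGST1 did not lie above that quartile, so 21.7% and 13.6% are shares of unlike sets. The 37 members not called had fold changes of −0.29 to 0.24. For all 37 the 95% interval stayed inside a 1.5-fold change in either direction.

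**Figure D3:**
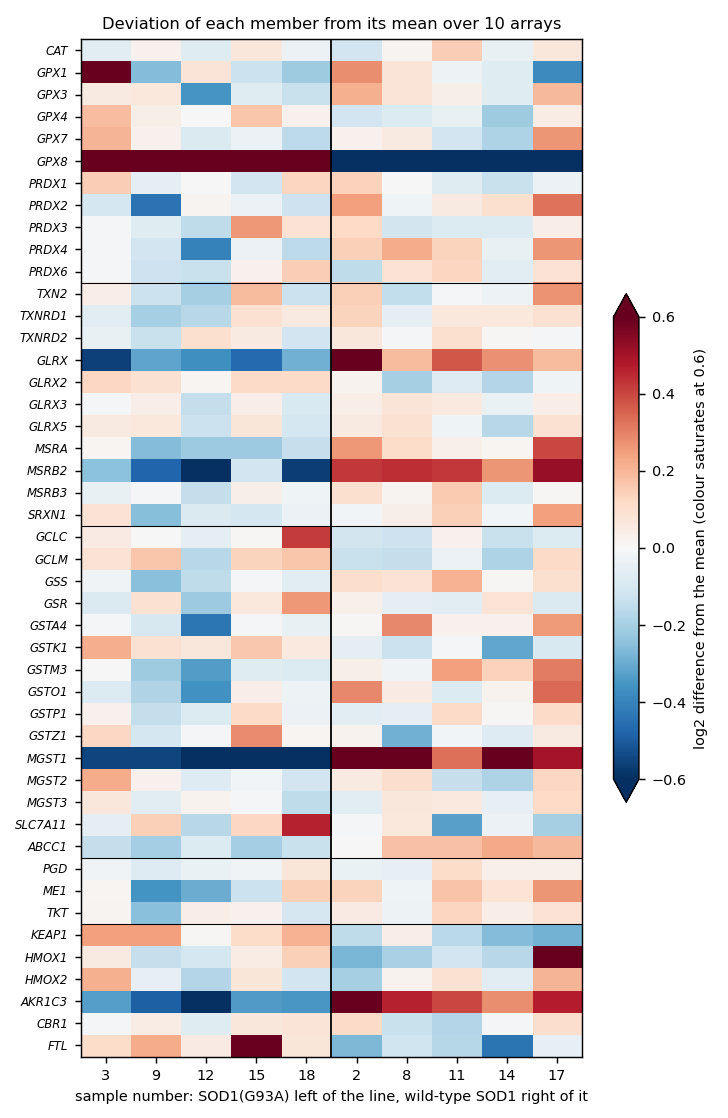
Difference of each member's log2 intensity from its own mean over the 10 arrays, SOD1(G93A) samples left of the line and wild-type SOD1 samples right of it, with horizontal lines between roles. GPX8, MGST1, MSRB2, AKR1C3 and GLRX change colour at the line, while SOD1(G93A) sample 12 and wild-type SOD1 sample 17 show columns of low and high values across roles.

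Arrays of 1 group differed from each other over the members. SOD1(G93A) sample 12 was the lowest array of its group in 26 of the 46 members and lay 0.105 below the group mean in the median member. Wild-type SOD1 sample 14 was the lowest of its group in 18, and wild-type SOD1 sample 17 the highest in 18, with median deviations of −0.083 and 0.076. The within-group SD of the median member was 0.136, against 0.124 for the median named gene. It ran from 0.06 to 0.31, with GPX1 and HMOX1 at the top (0.313 and 0.312).

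Other genes of the same pathways were read from a list of 114 genes that are not members, of which 87 were measured. In these, 3 rose and 1 fell (4.6% called, against 9.6% of named genes), and their median log2 fold change was 0.006. TXNIP, the inhibitor of thioredoxin that also limits glucose uptake, was at 10.08, 10.04, 10.48, 10.23 and 10.48 in SOD1(G93A) arrays, against 9.21, 9.10, 9.30, 9.45 and 9.17 in wild-type SOD1 arrays. It rose by 1.02 (SE 0.11, adjusted p = 0.000141), without overlap.

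SESN3, a sestrin induced by FOXO factors, was at 7.21, 7.44, 7.84, 7.75 and 8.22 in SOD1(G93A) arrays, against 6.56, 6.50, 6.98, 6.99 and 6.63 in wild-type SOD1 arrays. It rose by 0.96 (SE 0.18, adjusted p = 0.00736), while SESN1 and SESN2 had 0.10 (95% interval −0.12 to 0.32) and −0.02 (−0.19 to 0.14). ANPEP, a surface aminopeptidase that completes the breakdown of extracellular glutathione, was at 5.67, 5.56, 5.59, 5.63 and 5.63 in SOD1(G93A) arrays and at 4.83, 4.82, 4.67, 4.81 and 4.78 in wild-type SOD1 arrays. It rose by 0.83 (SE 0.05, adjusted p = 2.00e-06), the tightest difference of these 4 genes.

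BACH2, a transcriptional repressor that binds sites of the same family as NRF2, was at 6.23, 6.35, 6.13, 6.08 and 6.13 in SOD1(G93A) arrays, against 7.09, 7.11, 7.37, 7.16 and 7.22 in wild-type SOD1 arrays. It fell by 1.01 (SE 0.07, adjusted p = 8.29e-06). Its relative BACH1, the repressor that competes with NRF2 in most cells, had 0.19 (95% interval −0.03 to 0.41, adjusted p = 0.341). MAFG, a small MAF partner of NRF2, had 0.22 (0.08 to 0.37, adjusted p = 0.0730). None of 14 further genes for selenoproteins or their synthesis was called by limma, with 3 higher and 2 lower at an unadjusted p under 0.05. None of 15 further NADPH genes was called either, with 2 higher and 2 lower at that level. Of all 14232 named genes, 1437 were higher and 1650 lower at the same level.

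**Figure D4:**
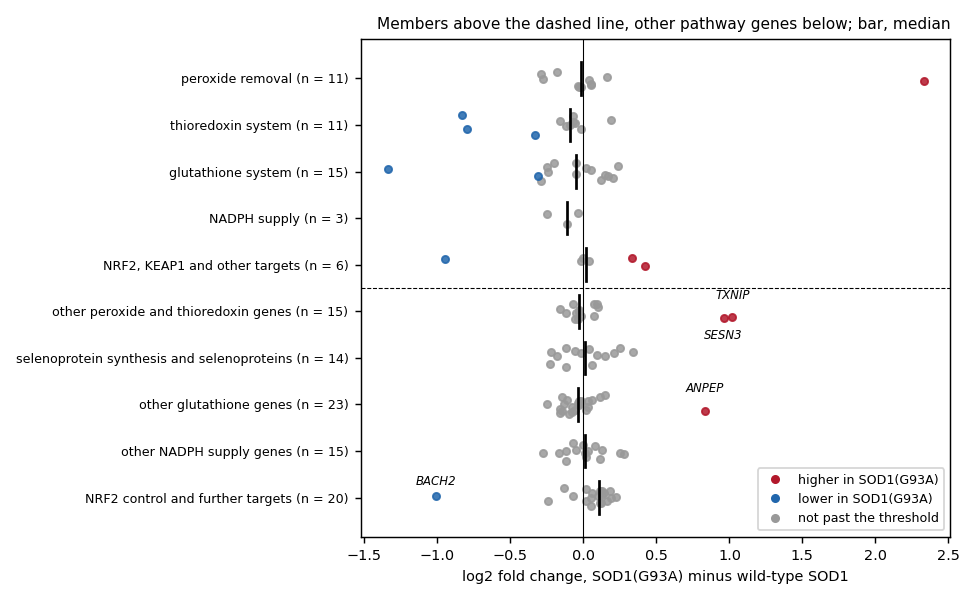
Log2 fold change, SOD1(G93A) minus wild-type SOD1, of each measured member by role (above the dashed line) and of the 87 other pathway genes by list (below it), with black bars at the medians. Outside the members, TXNIP, SESN3 and ANPEP lie to the right and BACH2 to the left, and the other 83 genes lie between −0.28 and 0.34.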

How the data were processed

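RNA of 10 samples was measured on Affymetrix exon arrays, 5 per group. The authors deposited 1 log2 intensity per gene-level probe set, made with RMA per the submitters' processing notes and in oneChannelGUI 1.6.5 per the labels. RMA equalizes the arrays' distributions, so a shift of all genes is not visible, and differences of dim probe sets are compressed. For genome build and filters: not given in the sources used here. Precision is limited by how many arrays there are.

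Of 22011 probe sets, 14432 had 1 gene symbol, 2408 several and 5171 none. Symbols were matched by gene identifier to RefSeq (GRCh38.p14), where 28 had no match. Each gene was read from its brightest single-symbol probe set. Groups were compared by lmFit and eBayes (limma 3.58.1, R 4.3.3, 2-sided), adjusted by Benjamini-Hochberg over all probe sets and called at 0.05. The script was tested on simulated data. The labels add a 2-fold threshold. Each fold change is a log2 difference with wild-type SOD1 subtracted from SOD1(G93A), with moderated standard errors (SE) and 95% intervals.

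Members and lists were chosen with earlier results of these data known. All called members are named, with fixed NRF2 targets, the largest uncalled changes per role and the called pathway genes. A further few were named after their values were seen.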

Additional observations from a re-analysis of the deposited data

Results flagged for a closer look

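In 102 groups of 5 values (each measured member, SOD1 and the called pathway genes, in each line), 8 held an array whose gap to its neighbour was more than 0.71 of the group's range. Chance flags about 1 in 20 groups. In SOD1(G93A) sample 12, 3 members were low: GLRX2 at 6.13 against 6.21 to 6.24 in the other 4 arrays (gap 0.716 of the range), GCLM at 4.96 against 5.21 to 5.29 (0.743) and GSTA4 at 8.41 against 8.75 to 8.83 (0.798). In SOD1(G93A) sample 18, GCLC was high at 7.64 against 7.17 to 7.27 (0.792). In wild-type SOD1 sample 2, GLRX was high at 5.44 against 4.66 to 4.84 (0.772) and ABCC1 low at 8.35 against 8.53 to 8.58 (0.766). GCLC was high in wild-type SOD1 sample 11 at 7.25 against 7.09 to 7.14 (0.727), and HMOX1 in wild-type SOD1 sample 17 at 6.64 against 5.61 to 5.77 (0.84). With only wild-type SOD1 sample 2 left out, ABCC1 fell by 0.35 (adjusted p = 0.00293 by limma). With only SOD1(G93A) sample 12 left out, GCLM had a fold change of 0.21 (adjusted p = 0.116).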

How the results depend on the processing

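Under up to 19 other settings per member, 861 values in all, none of the called members changed direction. GPX8, MSRB2, GLRX, MGST1, ABCC1 and AKR1C3 kept their calls wherever they were tested. MSRA, KEAP1 and FTL lost theirs in 26 of the values, and PRDX4, GSTK1 and GSTM3 gained one in 12. SOD1 was past the threshold under none of them (adjusted p from 0.0652 to 0.310). The 2-fold threshold left 1 member higher and 1 lower, 1 other pathway gene higher and 1 lower, and 192 probe sets. Leaving out 1 array gave 1 to 3 members higher, and 1 to 3 pathway genes lower, the 3 without wild-type SOD1 sample 2. Without samples 17 and 18 together, 1 member was higher. Pathway genes higher numbered 5 after repeated quantile normalization and with single-symbol probe sets only. Pathway genes lower numbered 2 with median centring, above the lower quartile and with single-symbol probe sets only. The causes were not tested. No paired analysis was made because no label pairs samples across the groups, which share no sample numbers. The numbers are neighbours across the groups (2 and 3, 8 and 9, 11 and 12, 14 and 15, 17 and 18), but no label ties neighbours to a shared culture or day, so they were not taken as pairs. Of these neighbours, only 17 and 18 were left out together.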

Other observations

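Of the 87 other pathway genes measured, 8 had no overlap between the groups (9.2%), against 11.4% of named genes. Of these 8, 4 did not pass the threshold by limma, and they were named after their values were seen. NADK2, the mitochondrial NAD kinase, averaged 7.69 ± 0.17 in SOD1(G93A) arrays and 7.41 ± 0.11 in wild-type SOD1 arrays (SD, n = 5 each; adjusted p = 0.0911). MTHFD2L, a mitochondrial folate dehydrogenase, averaged 3.77 ± 0.14 in SOD1(G93A) arrays and 4.05 ± 0.10 in wild-type SOD1 arrays (SD, n = 5 each; adjusted p = 0.0594). NFE2L1, a relative of NRF2 that drives proteasome genes, averaged 10.33 ± 0.05 in SOD1(G93A) arrays and 10.17 ± 0.09 in wild-type SOD1 arrays (SD, n = 5 each; adjusted p = 0.143). OSGIN1, an NRF2 target, averaged 6.22 ± 0.05 in SOD1(G93A) arrays and 6.35 ± 0.05 in wild-type SOD1 arrays (SD, n = 5 each; adjusted p = 0.186). The differences of NADK2 and MTHFD2L were 0.28 and −0.28 on the log2 scale. The SOD1(G93A) level of MTHFD2L lies under the lower quartile, so the size of its difference is uncertain.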
